A study of Sus scrofa with 14 samples.

Results

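Heat shock and endoplasmic reticulum (ER) stress genes were followed in pig jejunum perfused with digested onion. The genes considered were 6 chaperones of the cytosol, nucleus and mitochondria (HSPB1, HSP90AA1, HSP90AB1, HSPA8, HSPH1 and HSPD1) and 4 genes of the ER stress response (HSPA5, DDIT3, ATF4 and XBP1). They were chosen by name, with earlier results of these data known. A probe of the array was taken for a gene when its RefSeq accession belonged to that gene. This gave 42 probes for 9 of the 10 genes, out of 3020 genes that could be named in the same way. No probe was matched to HSPA5, so the main ER chaperone was not analysed here.

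The in situ small intestinal segment perfusion (SISP) model was used, in which isolated loops of the gut of an anaesthetised piglet keep their blood supply and innervation. Male piglets of 5 weeks (8.2 kg) were used, with segments at 31 to 58% of the length of the small intestine, and mucosal scrapings of jejunum were taken after 6 h of perfusion. Pigs 1, 2 and 4 each gave a segment with yellow onion digest (YOd) and a segment with saline digest (Sd), the control that went through the digestion without onion. Pigs 5, 6, 7 and 8 each gave a segment with white onion digest (WOd) and one with Sd. There was 1 array per segment and 14 arrays in all. Each onion was tested in other pigs, so onion type and pig cannot be told apart. Per the methods the onion digests were diluted in peptone, and Sd was diluted in saline and to a greater degree. Onion, diluent and degree of dilution therefore cannot be told apart either. The labels give no other treatment or genotype.

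Heat and other protein-damaging conditions release the transcription factor HSF1, which raises the transcription of chaperones that hold, refold or pass on unfolded proteins. In the ER, unfolded proteins are sensed by IRE1, PERK and ATF6. IRE1 splices XBP1 mRNA into the form that codes for an active transcription factor, and PERK favours translation of ATF4, which in turn can raise DDIT3. XBP1 is known to be needed by secretory cells of the gut such as Paneth and goblet cells. The arrays measured the amount of mRNA, not the splicing of XBP1 or the translation of ATF4.

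None of the 9 genes passed the thresholds of the study, a raw p below 0.05 together with a fold change above 1.5, in any comparison. Over the 7 pigs, the fitted log2 fold changes of onion over Sd lay between -0.05 (DDIT3) and 0.33 (XBP1), and 8 of the 9 were above 0, as were 1660 of the 2369 genes tested, whose median was 0.08. The count of 0 of 9 stands beside 1.27% of all genes tested that passed over the 7 pigs. In YOd/Sd, 0 of 9 passed, against 4.59% of all genes. In WOd/Sd, 0 of 9 passed, against 1.29%. When the effect of WOd was subtracted from that of YOd, 0 of 9 passed, against 3.65%. At shares of this size a count of 0 among 9 genes does not set these genes apart from the rest. At a raw p below 0.05 in limma without the fold limit, XBP1 was the 1 gene over the 7 pigs, where 7.09% of all genes passed. None of the 9 did so with YOd (11.4% of all genes), with WOd (2.79%) or in the comparison of both onions (4.26%). No Benjamini-Hochberg adjusted p of limma over all genes was below 0.406 for any of the 9 genes in any comparison.

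**Figure D1:**
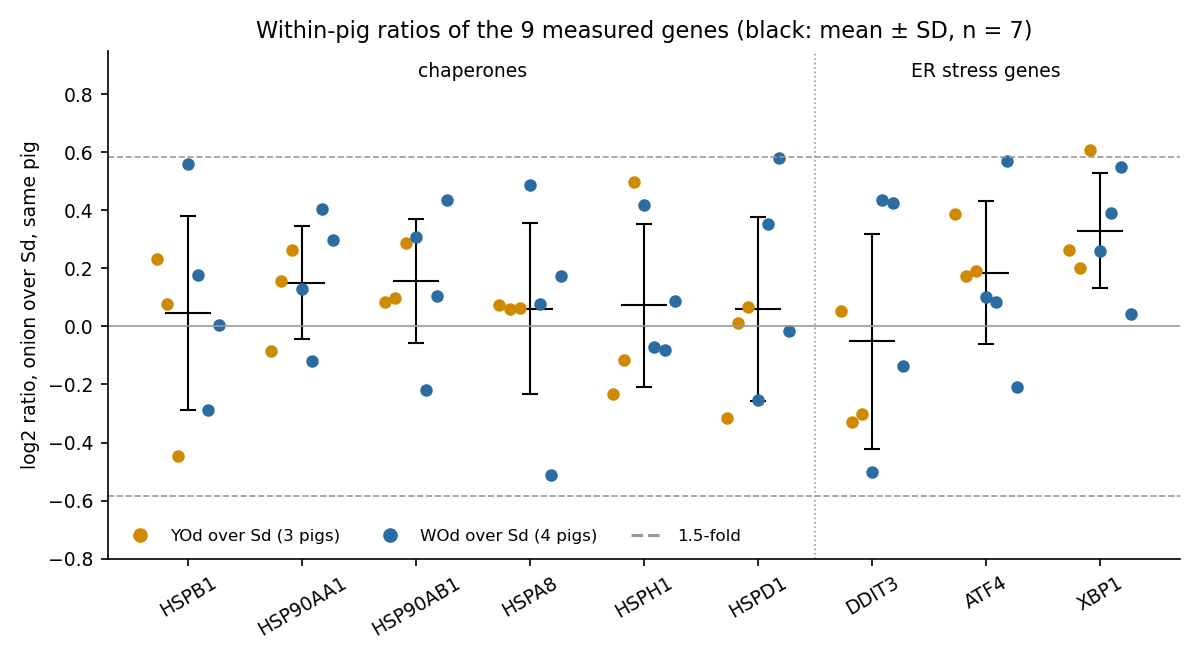
Within-pig log2 ratio of onion over Sd (vertical axis) for the 9 genes, 1 point per pig, with the mean and SD over 7 pigs in black and dashed lines at 1.5-fold. The points of XBP1 are drawn above 0, but those of pig 4 (both spots saturated) and pig 8 (Sd spot saturated) have no settled sign, and those of the other genes lie on both sides of 0.

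The signal of the 42 probes exceeded background clearly on each of the 14 arrays, so signal at the low end did not limit these genes. Saturation, a spot at the upper limit of the scanner, did. It touched 4 probes, the brightest ones of HSP90AB1, XBP1, HSPA8 and HSP90AA1, and left 38 probes free. Levels are given as log2 of the signal over the 75th percentile of the array, and levels of different probes were not compared with each other. The number of arrays limits the precision, and a log2 ratio is always the onion segment minus the Sd segment of the same pig.

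Among the chaperones, HSP90AB1, the constitutive cytosolic HSP90, was the most affected by saturation. Its brightest probe (A_72_P051491) was saturated on 14 of 14 arrays. In pig 4 its ratio was 0.75, of which the scaling of the 2 arrays alone gave 0.62, while in pig 5 the ratio was 0.13 and the scaling -0.09. Before scaling, its ratios lay between -0.12 and 0.22. This probe therefore gave no fold change and the next brightest (A_72_P424164), saturated on no array, was used. Its level was 5.37 to 5.89 (median 5.79) in the 7 Sd segments and 5.67 to 6.11 (median 5.88) in the 7 onion segments. These were the most even levels of the 9 genes, with an SD of 0.17 over the Sd segments, and the groups overlapped. The onion segment was higher in 6 of 7 pigs, with a fitted log2 fold change of 0.16 (SE 0.10, limma adjusted p = 0.673). The 5 unsaturated probes of the gene did not share a direction, and in pig 7 they ran from -1.24 to 0.28.

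**Figure D2:**
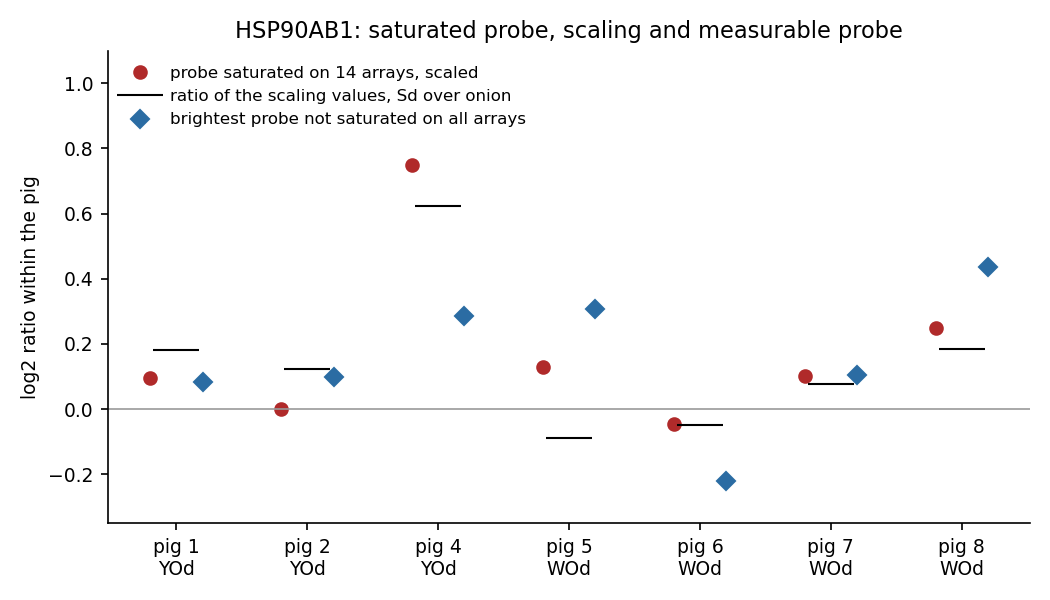
Log2 ratio within each pig (vertical axis) for the HSP90AB1 probe saturated on 14 arrays (red circles), for the scaling values of the same 2 arrays (black bars) and for the HSP90AB1 probe that was used (blue diamonds). In pig 4 the saturated probe lies at 0.75 and the scaling at 0.62, while the unsaturated probe lies at 0.29.

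HSP90AA1, the stress-inducible cytosolic HSP90, had a level of 5.85 to 7.06 (median 6.27) in Sd and 6.15 to 7.19 (median 6.43) in onion segments at its brightest probe. The groups overlapped over most of their range. The fitted log2 fold change was 0.15 (SE 0.10, limma adjusted p = 0.673), with the onion segment higher in 5 of 7 pigs. The spot was saturated in the WOd segment of pig 5, so the ratio of 0.13 in that pig is a lower bound. The 5 unsaturated probes of HSP90AA1 differed from it. All of them were below 0 in pigs 1 and 2 (YOd), and all were above 0 in pigs 6 and 7 (WOd), with medians of -0.16, -0.19, 0.54 and 0.49. In pig 4 (YOd) and pigs 5 and 8 (WOd) they lay on both sides of 0, with medians of 0.02, 0.31 and -0.07. In YOd/Sd the brightest probe averaged 0.11 and the brightest unsaturated probe -0.11, a change of sign within 1 gene. Neither passed the thresholds.

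HSPA8, the constitutive cytosolic HSP70, was represented by a single probe. It measured 5.86 to 6.85 (median 6.51) in Sd and 5.96 to 7.02 (median 6.57) in onion segments. The ratios were 0.07, 0.06 and 0.06 in pigs 1, 2 and 4 and 0.49, 0.08, -0.51 and 0.18 in pigs 5, 6, 7 and 8. The 4 WOd pigs lay far apart. The spot was saturated on 3 arrays. Both arrays of pig 8 were among them, and there the ratio of 0.18 lies next to the scaling (0.19), with -0.01 left before scaling. In pig 4 the Sd spot was saturated, so its ratio is an upper bound. Pig 7 stood apart from the others in the low direction, and no second probe was there to compare it with. Over 7 pigs the fitted log2 fold change was 0.06 (SE 0.12, limma adjusted p = 0.862).

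HSPH1 is an HSP110 that works as a nucleotide exchange factor of HSP70. It had a level of 0.16 to 1.53 (median 0.85) in Sd and 0.08 to 1.77 (median 0.78) in onion segments. Its ratio was above 0 in 3 of 7 pigs, highest in pig 4 (0.50) and pig 5 (0.42). The second probe of the gene gave 0.53 in pig 5 but -0.08 in pig 4. The fitted log2 fold change was 0.07 (SE 0.12, limma adjusted p = 0.838). The levels of HSPH1 differed more between pigs than between the segments of a pig, with an SD of 0.43 over the Sd segments against 0.28 for the ratios. Over the 14 arrays the genes whose levels followed HSPH1 most closely were CD4, RAB32 and ID3, with root mean square differences of 0.23, 0.27 and 0.27 (log2, each gene centred on its mean), where the median of 2360 genes was 0.58. The CD4 signal was weak, at the floor on 2 arrays and clearly above background on 12.

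HSPB1, a small heat shock protein that holds unfolded clients and binds the cytoskeleton, varied most between pigs. Its level ran from 3.78 to 5.25 (median 4.38) in Sd and from 3.55 to 4.99 (median 4.47) in onion segments, with an SD of 0.56 over the Sd segments. The ratio was highest in pig 5 (0.56) and lowest in pig 4 (-0.45). Both probes of the gene had the same sign in 6 of 7 pigs, pig 7 being the exception. The fitted log2 fold change was 0.05 (SE 0.13, limma adjusted p = 0.911).

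HSPD1 is the chaperonin of the mitochondrial matrix (HSP60) and had the most probes, 12, none of them saturated. The brightest had a level of 3.34 to 4.48 (median 4.14) in Sd and 3.69 to 4.24 (median 4.16) in onion segments. Onion segments thus lay within the range of the Sd segments. Its ratios were -0.32, 0.01 and 0.07 in pigs 1, 2 and 4 and -0.25, 0.35, 0.58 and -0.01 in pigs 5, 6, 7 and 8. The 12 probes agreed on a direction in part of the pigs. In pig 1 all 12 were below 0 (median -0.25), in pig 4 11 of 12 were below 0 (median -0.38), and in pig 6 11 of 12 were above 0 (median 0.24). The 1 probe above 0 in pig 4 was the brightest, on which the fold change rests. In pig 7 the same 12 probes ran from -0.98 to 0.81, so the value of that pig depends on the probe.

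The fitted log2 fold change of HSPD1 was 0.06 (SE 0.12, limma adjusted p = 0.868) over 7 pigs. The brightest probe averaged -0.08 with YOd and 0.17 with WOd, and the onions differed by -0.25 (SE 0.25, 95% interval -0.81 to 0.32). With every probe of the array in the fit, 41 probes of the 9 genes were tested. One of them, an HSPD1 probe (A_72_P625612), passed the thresholds for the difference between the onions, with a YOd value 0.71 lower on the log2 scale (-0.71, SE 0.27, limma adjusted p = 0.739). In that fit 5.71% of all probes passed for this difference. None of the 41 probes passed with YOd (4.93% of all probes), with WOd (1.34%) or with both onions joined (0.856%). The fitted values were above 0 for 16 of the 41 probes in YOd/Sd, where 59.0% of all probes were above 0, and for 37 of the 41 in WOd/Sd, where 57.4% were. Probes of 1 gene share a target and are not independent.

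**Figure D3:**
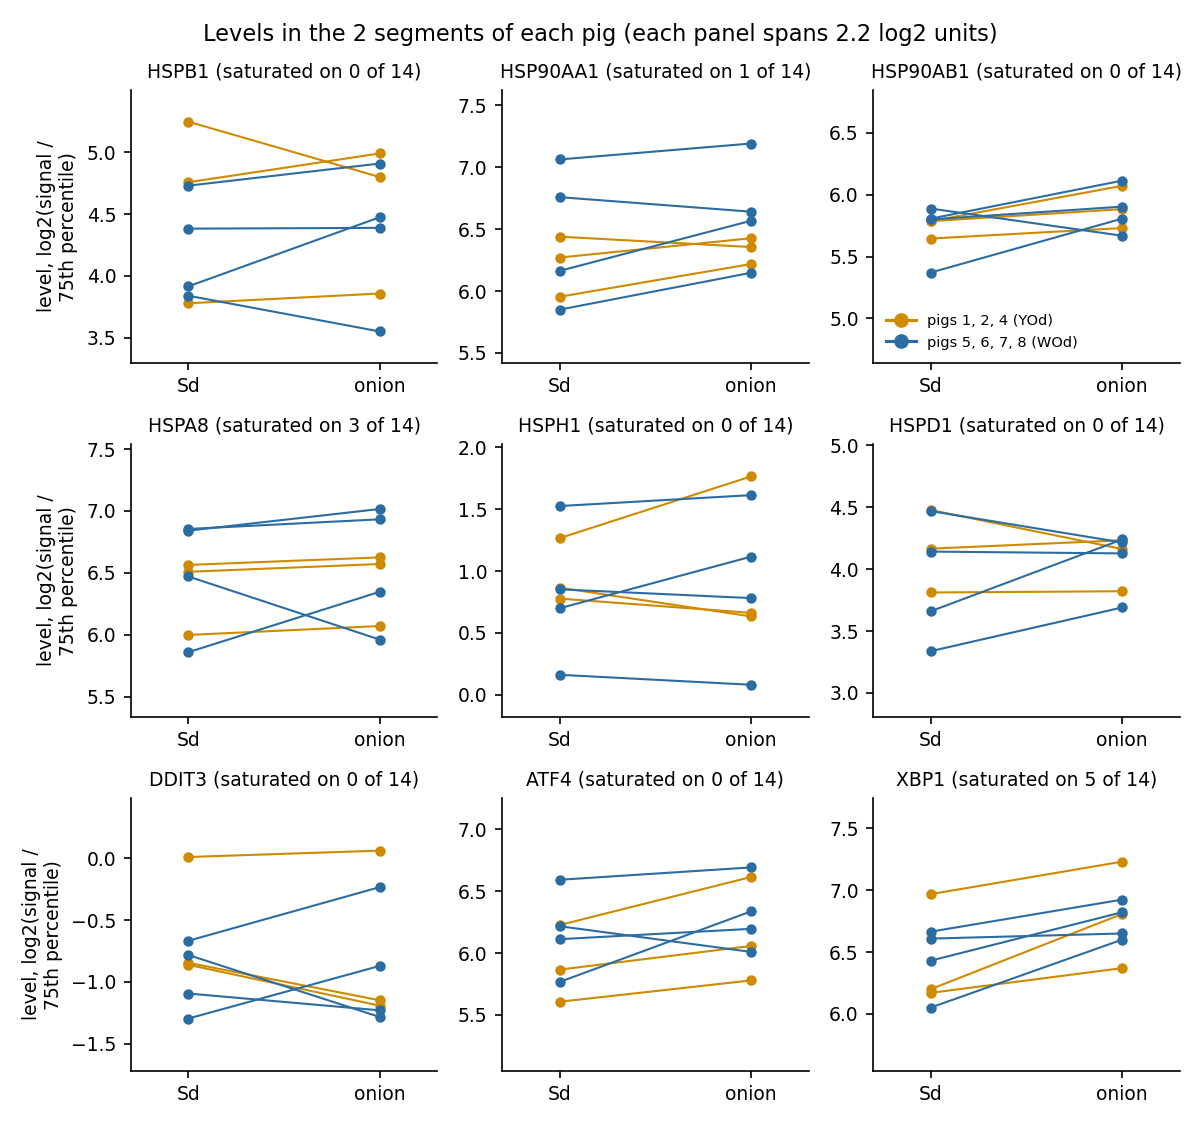
Level in the Sd and the onion segment of each pig (log2 of signal over the 75th percentile of the array, vertical axes of equal span) for the probe used for each of the 9 genes, with a line per pig. The levels of the groups overlap in every panel, and lines of 1 onion run in both directions for most genes.

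XBP1 had the highest fold change of the ER stress genes. At its brightest probe (A_72_P550986), the Sd level was 6.97, 6.17 and 6.20 in pigs 1, 2 and 4 and 6.66, 6.43, 6.05 and 6.61 in pigs 5, 6, 7 and 8. The onion level was 7.23, 6.37 and 6.81 with YOd and 6.92, 6.82, 6.60 and 6.65 with WOd. The groups overlapped, and saturated spots limit what these values show. The log2 ratios were 0.26, 0.20 and 0.61 in the YOd pigs and 0.26, 0.39, 0.55 and 0.04 in the WOd pigs. Of the 2369 genes tested, none had Sd and onion levels that did not overlap. The fitted log2 fold change was 0.33 (SE 0.10, 95% interval 0.11 to 0.56), which is 1.26-fold, with a raw p below 0.05 and an adjusted p of 0.612 in limma.

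That value of XBP1 rested in part on saturated spots. The probe was saturated on 5 arrays, the Sd and YOd segments of pig 4, the Sd segment of pig 8, the YOd segment of pig 1 and the WOd segment of pig 7. With both spots of pig 4 saturated, its ratio of 0.61 repeats the scaling of the arrays (0.62), and before scaling it was -0.02. The ratios of pigs 1 and 7 are lower bounds and that of pig 8 an upper bound. At this probe and with this scaling, the onion segment was thus higher in pigs 1, 2, 5, 6 and 7. The sign was not settled in pigs 4 and 8. Without pig 4 the fitted log2 fold change was 0.28 (limma adjusted p = 0.891), still with a raw p below 0.05. The brightest unsaturated probe (A_72_P094611) gave 0.40, 0.03 and 0.42 in the YOd pigs and -0.08, 0.35, 0.33 and -0.02 in the WOd pigs. It was above 0 in 5 of 7 pigs, with a fitted log2 fold change of 0.20 (SE 0.11, 95% interval -0.03 to 0.44, limma adjusted p = 0.694), and its raw p was above 0.05. All 5 unsaturated probes were above 0 in pigs 4, 6 and 7, with medians of 0.21, 0.51 and 0.53. In pigs 1, 2, 5 and 8 they lay on both sides of 0, with medians of 0.02, -0.07, -0.08 and -0.02.

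The value of XBP1 also depended on the scaling. With quantile normalization it was 0.15 (limma adjusted p = 0.754), and without scaling between arrays 0.18 (limma adjusted p = 0.933), in both cases with a raw p above 0.05. Without scaling the median of all genes moved from 0.08 to -0.07, and XBP1 lay 0.25 above that median, a margin that scaling cannot change. The margin was 0.11 with quantile normalization and 0.13 with the unsaturated probe. The goblet cell markers CLCA1 and SPDEF had a summed level that was 0.46 and 0.73 higher (log2) in the onion segment of pigs 6 and 7, 0.41, 0.07, 0.19 and 0.10 higher in pigs 4, 2, 5 and 8, and at -0.62 in pig 1. Their summed level was 3.77 to 7.59 in Sd and 3.89 to 9.55 in onion segments. Neither of these 2 markers passed the thresholds in a comparison, and their part in the XBP1 values was not tested.

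ATF4, the transcription factor of the integrated stress response, had a level of 5.61 to 6.59 (median 6.11) in Sd and 5.78 to 6.69 (median 6.20) in onion segments. No spot of it was saturated. The ratios of its brightest probe were 0.39, 0.17 and 0.19 in the YOd pigs and 0.10, 0.08, 0.57 and -0.21 in the WOd pigs. It was higher with onion in 6 of 7 pigs, with a fitted log2 fold change of 0.19 (SE 0.11, 95% interval -0.06 to 0.43, limma adjusted p = 0.671). The direction of the 6 ATF4 probes differed between pigs. All 6 probes were above 0 in pigs 1, 4, 6 and 7, with medians from 0.30 to 0.58. In pigs 2, 5 and 8, 5 of 6 probes were below 0, with medians of -0.10, -0.40 and -0.15. The 1 probe above 0 in pigs 2 and 5 was the brightest, on which the fold change rests. By the medians of its probes ATF4 was above 0 in 4 of 7 pigs. Pigs of YOd and of WOd were found on either side.

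**Figure D4:**
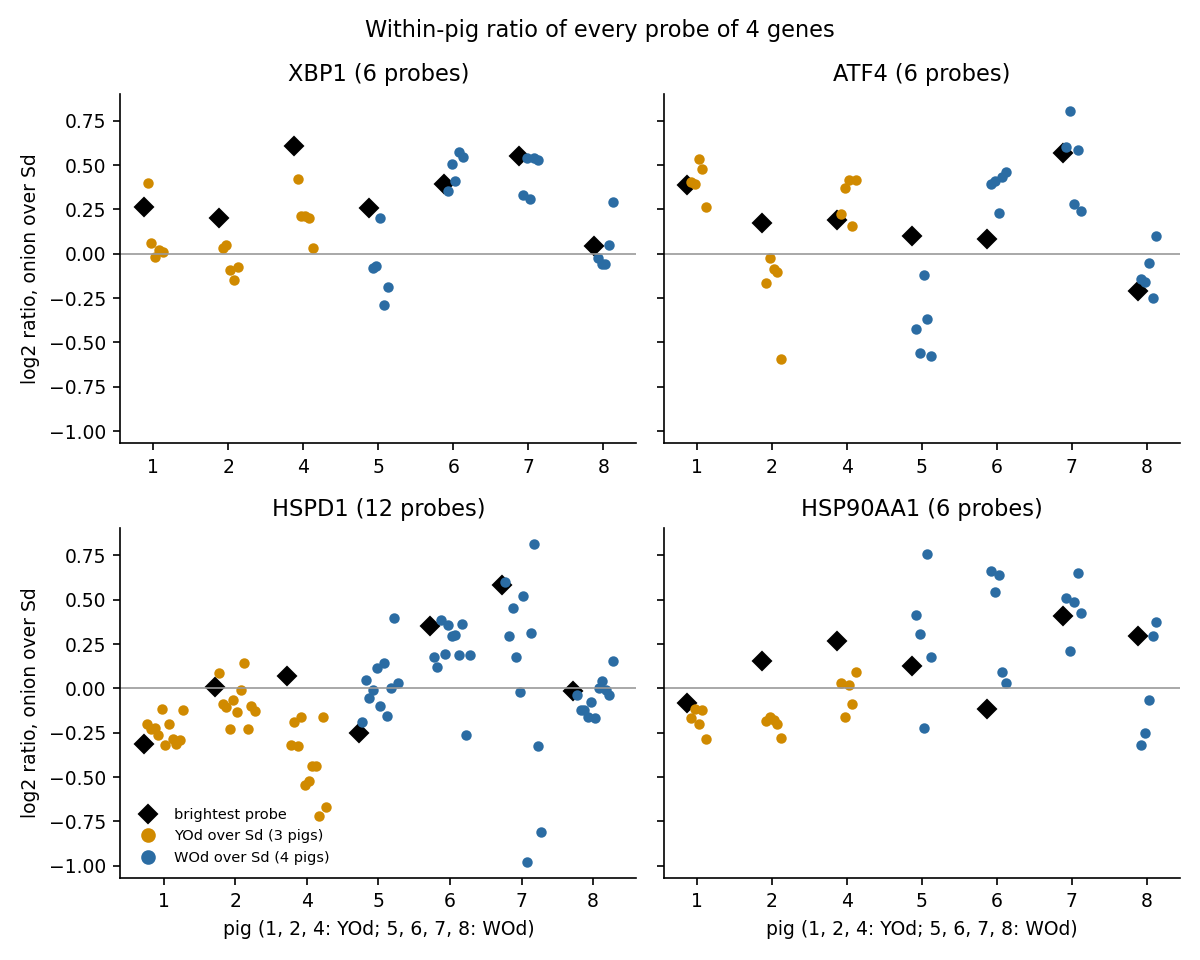
Log2 ratio of onion over Sd (vertical axis) in each pig (horizontal axis) for every probe of XBP1, ATF4, HSPD1 and HSP90AA1, with the probe of highest signal as a black diamond. The ATF4 probes lie above 0 in pigs 1, 4, 6 and 7, the XBP1 probes in pigs 4, 6 and 7, and the HSPD1 probes spread from -0.98 to 0.81 in pig 7.

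DDIT3 (CHOP), a transcription factor that promotes cell death under lasting ER stress, was represented by 1 probe. Its Sd level was 0.01, -0.86 and -0.85 in pigs 1, 2 and 4 and -0.78, -0.67, -1.30 and -1.09 in pigs 5, 6, 7 and 8. Its onion level was 0.06, -1.19 and -1.15 with YOd and -1.28, -0.23, -0.87 and -1.23 with WOd. Pig 1 was the highest in both segments. The ratio was above 0 in 3 of 7 pigs and ran from -0.50 in pig 5 to 0.43 in pigs 6 and 7. The fitted log2 fold change was -0.05 (SE 0.14, 95% interval -0.35 to 0.25, limma adjusted p = 0.907). The mean was -0.19 with YOd and 0.06 with WOd, and the onions differed by -0.25 (SE 0.28, 95% interval -0.88 to 0.38). Over the 7 pigs the interval runs from 0.78-fold to 1.19-fold.

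The 6 chaperones were then set against the 3 ER stress genes within each pig, as a description with no test. The mean log2 ratio of the chaperones was 0.09 ± 0.10 (SD, n = 7) and that of the ER stress genes 0.15 ± 0.22 (SD, n = 7), where the median of all genes was 0.08 ± 0.10 (SD, n = 7). The chaperones minus the ER stress genes gave -0.27, 0.03 and -0.04 in pigs 1, 2 and 4 and 0.32, -0.27, -0.48 and 0.27 in pigs 5, 6, 7 and 8. The mean of this difference was -0.06 ± 0.30 (SD, n = 7), above 0 in 3 of 7 pigs, and -0.02 ± 0.30 (SD, n = 7) with unsaturated probes where a gene had one. The sign changed between pigs of the same onion, and the ER stress genes varied more between pigs than the chaperones, as means of 3 and of 6 genes. In pig 7 the ER stress genes averaged 0.52 and the chaperones 0.03. In pig 5 they averaged -0.05 and 0.27.

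**Figure D5:**
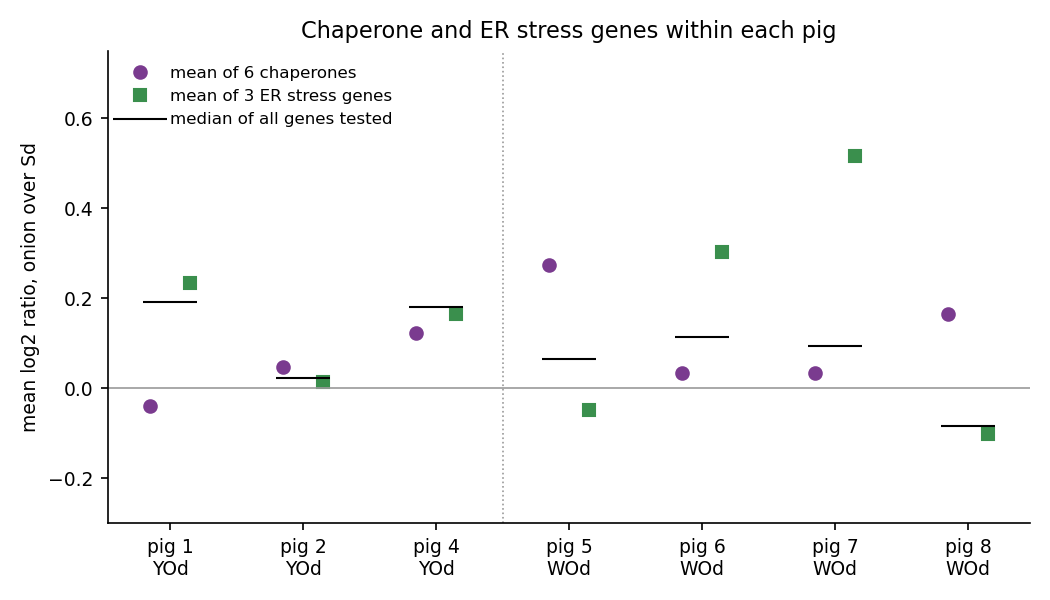
Mean log2 ratio of onion over Sd (vertical axis) in each pig for the 6 chaperones (circles) and the 3 ER stress genes (squares), with the median of all genes tested as a black bar. The ER stress genes lie above the chaperones in pigs 1, 4, 6 and 7 and below them in pigs 2, 5 and 8.

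The 9 genes did not stand out from other genes in their spread. The SD of the Sd level over 7 pigs had a median of 0.41 for the 9 genes and 0.40 for all genes tested, and the SD of the ratio 0.28 and 0.34. The same pigs carried other differences between their segments. The Sd segment of pig 6 had a summed level of the ileal markers FABP6 and SLC10A2 of 91.2, the highest of the Sd segments (lowest 0.31), and the ratio of these markers was -4.92 in that pig. Without pig 6, XBP1 had a log2 fold change of 0.32 (limma adjusted p = 0.736) and again 0 of 9 genes passed. The 3 crypt markers of dividing cells (TOP2A, CDK1 and CCNB1) had a summed level of 9.54 to 21.0 in Sd and 8.32 to 20.0 in onion segments. Their ratio was below 0 in 6 of 7 pigs, -1.12 in pig 4 and -0.81 in pig 8, and 0.40 in pig 7. None of the 3 passed both thresholds, though TOP2A and CDK1 had a raw p below 0.05 over the 7 pigs (limma adjusted p = 0.655 for each). Without pigs 2 and 7, YOd/Sd rested on pigs 1 and 4 alone. In that setting TOP2A and CDK1 passed both in YOd/Sd, at -0.80 and -0.65 (limma adjusted p = 0.130 and 0.165, 13.2% of all genes passing). TOP2A then also passed in WOd/Sd, at -0.63 (limma adjusted p = 0.789, 3.47% passing). With both onions joined it passed at -0.70 (limma adjusted p = 0.158, 3.25% passing). None of the 3 passed between the onions (7.7%). The 8 T cell and leukocyte markers ranged from 6.76 to 22.6 in Sd and from 6.28 to 23.0 in onion segments. Their ratios ran from -0.49 (pig 8) to 0.54 (pig 4). Of these markers, CD3D passed for the difference between the onions (0.69, limma adjusted p = 0.901), where 3.65% of all genes passed. Without pigs 2 and 7, 4 of 8 passed for that difference (7.7% of all genes) and 2 of 8 in YOd/Sd (13.2%). In that setting 0 of 8 passed in WOd/Sd (3.47%) and 0 of 8 with both onions joined (3.25%). In pig 7 the smooth muscle markers (4 genes, with DES and ACTA2 among them) were at -0.69. The 5 enterocyte markers ranged from 376.5 to 578.4 in Sd and from 490.2 to 591.8 in onion segments in their summed level, with ratios from -0.10 to 0.56, and 4 of these 5 were saturated on part of the arrays. In tissue, fewer cells of a type and less RNA per cell cannot be told apart. The part of these markers in the ratios of the stress genes was not tested. The arrays of pigs 2 and 7 lay on different slides, and without both pigs XBP1 had a log2 fold change of 0.31 (limma adjusted p = 0.427) and again 0 of 9 genes passed in any comparison.

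Other genes of the same pathways were taken from lists. Of 51 other chaperones and co-chaperones of the cytosol and mitochondria, 11 could be named on the array. In YOd/Sd, 1 of 11 passed (4.59% of all genes), HSPA1L, a testis-type HSP70, with a log2 fold change of 0.70 (SE 0.23, limma adjusted p = 0.406). Its ratios were 0.76, 0.10 and 1.22 in the YOd pigs and 0.21, 0.91 and -0.53 in pigs 5, 6 and 7. It was left out of the other fits because its spot was an outlier on 1 array of pig 8. In WOd/Sd (1.29% of all genes) and over the 7 pigs (1.27%), 0 of 10 passed, with 0 and 1 genes at a raw p below 0.05 in limma (2.79% and 7.09% of all genes), and the median over the 7 pigs was 0.14 (0.08 for all genes). Below the fold limit, TCP1, a subunit of the cytosolic chaperonin, had 0.29 over 7 pigs (limma adjusted p = 0.639), and HSPA6 had -0.57 in YOd/Sd (limma adjusted p = 0.406). These 2 genes had a raw p below 0.05 and were picked after their values were seen. Without pigs 2 and 7, where YOd/Sd rested on pigs 1 and 4, HSPA1L and HSPA6 passed both thresholds in YOd/Sd in opposite directions. HSPA1L was at 0.99 (limma adjusted p = 0.058) and HSPA6 at -0.88 (limma adjusted p = 0.060), with 13.2% of all genes passing. HSPA6 also passed for the difference between the onions, at -1.14 (limma adjusted p = 0.535, 7.7% passing).

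The inducible HSP70 genes resemble each other in sequence, and cross-hybridisation between them was not tested. HSPA6, listed as HSP70 by the study, had ratios of -0.95, 0.05 and -0.81 in the YOd pigs and 0.69, 0.17, -0.25 and -0.07 in the WOd pigs. HSP70.2, a heat-inducible HSP70 of the pig, had -0.94, 0.15 and 0.35 and then 0.72, 0.72, -0.07 and 0.16. In pig 1 these 2 genes lay at -0.95 and -0.94 while HSPA1L lay at 0.76. The SD over pigs was 0.57 for both, wider than the SD of each of the 9 genes above. The study's list holds probes picked for large ratios in several pigs and none of the 9 genes. A wider spread of the listed genes therefore follows from how they were picked.

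Of 47 other genes of ER folding and the unfolded protein response, 13 could be named and 0 of 13 passed in each of the 4 comparisons (4.59%, 1.29%, 1.27% and 3.65% of all genes), with a median of 0.08 over the 7 pigs. At a raw p below 0.05 in limma alone there was 1 gene with YOd (11.4% of all genes), 0 with WOd (2.79%), 2 with both onions joined (7.09%) and 0 between the onions (4.26%). HSP90B1, the HSP90 of the ER, had 0.23 (limma adjusted p = 0.655) and SERPINH1, the collagen chaperone, 0.30 (limma adjusted p = 0.612) over 7 pigs. Both were below 1.5-fold and were picked after their values were seen. The HSP90B1 spot was saturated on 1 array, and with unsaturated probes 1 gene of the list in place of 2 had a raw p below 0.05. CALR, CANX and PDIA4, which fold glycoproteins and form disulphide bonds, had log2 fold changes of 0.06, 0.08 and -0.04. Of 26 genes of the integrated stress response and targets of ATF4 or DDIT3, 8 could be named and 0 of 8 passed in each comparison, against the same shares of all genes, with 0 genes at a raw p below 0.05 in limma and a median of -0.12 over the 7 pigs. Without pigs 2 and 7, 1 of them, BCL2L11, a promoter of apoptosis, passed in YOd/Sd at -0.89 (limma adjusted p = 0.165, 13.2% of all genes passing). That fit rested on pigs 1 and 4, with BCL2L11 ratios of -1.57 and -0.21. Its levels were low, -3.70 to -2.37 in Sd and -4.08 to -2.73 in onion segments, with the floor at -4.43. DDIT4, which restrains mTORC1, had -0.20, and GADD45A, a growth arrest gene, 0.15.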

How the data were processed

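RNA of scraped jejunum mucosa of 7 pigs was hybridised to 14 one-colour Agilent arrays on 5 slides. The authors deposited scanner files whose processed signal is an intensity on a linear scale made by Feature Extraction 10.7.3.1, with the median and background intensity, and a table of processed log2 values of 28369 probes, for which the normalization is not given in the sources used here beyond a mention of RMA in the submitters' processing notes. Of 43603 probes, 50.0% to 70.7% per array exceeded background and 546 to 964 were saturated. The number of arrays limits the precision.

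Outlier spots (5 to 462 per array) were left out, spots of a probe were averaged, and signals were divided by their array's 75th percentile, floored at the pooled 40th percentile (log2 value -4.43) and log2 transformed. Probes were named by RefSeq accession through the Sscrofa11.1 reference, used for names only (6686 probes, 3020 genes), or by the study's list of variable probes, which held no probe of the 9 genes. The brightest probe stood for a gene. Probes saturated on all 14 arrays (454) were not used, a choice made after the data were at hand that departs from the planned design, and 2989 genes kept a ratio. Genes above the floor on at least 3 (YOd/Sd), 4 (WOd/Sd), 7 (7 pigs) or 3 arrays (difference) entered limma (3.58.1, under R 4.3.3) with pig as block, following the methods, and p-values were Benjamini-Hochberg adjusted over all genes. The 2 arrays of a pig come from the same animal, and after subtraction of group means they correlated with r from 0.449 to 0.760. The fits were checked on simulated data. Other steps used Python 3.11.15.

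The genes, lists and tests were chosen with earlier results of these data known. Named were the 9 genes, genes of the lists past both thresholds, the HSP70 genes the study lists, the 3 genes most like HSPH1, and markers. The same likeness for HSPA5 could not be computed. Alternatives covered normalization, background, floor, filter, probe, the authors' log2 values, block, slide and each pig left out. Normexp (offset 50) used the median signal, as the mean signal was not in the files given. No genome build is named in the files, so coordinates are not given. Each array holds 1 segment of 1 pig, and p-values measure the spread between pigs. The result of 1 list of cell type markers is not reported here.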

Additional observations from a re-analysis of the deposited data

Results flagged for a closer look

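HSPA8 in pig 7 had a log2 ratio of onion over Sd of -0.51, apart from the other 6 pigs, of which the nearest was at 0.06. The gap to it was 0.572 of the whole range. HSPA8 had 1 probe, and this spot was saturated on neither array of pig 7, which lay on different slides. Of 30 groups of values examined in this way 1 stood apart, where chance gives about 1 in 20.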

How the results depend on the processing

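The count of 0 of 9 genes past both thresholds stayed at 0 in each comparison and under each alternative with 1 value per gene. With every probe in the fit, 1 HSPD1 probe passed for the difference between the onions. The chaperones minus the ER stress genes stayed within 1 SD, from -0.13 to 0.01 when each pig was left out. Of 604 member values under alternatives, 58 changed sign, 24 of them in YOd/Sd, 13 in WOd/Sd and 21 over the 7 pigs. The difference between the onions entered this count for DDIT3 and HSPD1 only, with 46 values and 0 changes of sign. Outside the count it did change sign, as for HSPA8, from 0.008 to -0.26 with quantile normalization. In YOd/Sd HSP90AA1 went from 0.11 to -0.11 with its unsaturated probe, and HSPA8 from 0.07 to -0.28 with quantile normalization. Over the 7 pigs, with quantile normalization HSPB1 was -0.011 and HSPA8, which has no unsaturated probe, -0.13. Without scaling HSPB1 was -0.10, HSPA8 -0.089, HSPH1 -0.078 and HSPD1 -0.089, and HSP90AA1 was -0.016 with its unsaturated probe (chosen after seeing the data). This follows from the scaling itself, which moved the median of all genes by over 0.1. HSPD1 was also -0.014 with normexp, -0.053 as the mean of its probes and -0.032 without pigs 2 and 7, and the cause was not tested. Leaving out each pig gave -0.040 to 0.13 for HSPB1 and -0.010 to 0.16 for HSPA8. It gave -0.025 to 0.12 for HSPD1 and -0.13 to 0.024 for DDIT3. Pig 5 made the change for HSPB1 (-0.040), HSPA8 (-0.010) and DDIT3 (0.024), and pig 7 for HSPD1 (-0.025).

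XBP1 over the 7 pigs stayed above 0 in 22 of 22 alternatives (0.05 to 0.38) and kept a raw p below 0.05 in limma in 14 of them, all 7 that left out a pig included (adjusted p over all 22 from 0.391 to 0.999). The fits that left out a pig used the brightest probe, saturated on 5 arrays. In each fit with the unsaturated probe or the mean of all probes, the raw p was above 0.05 in limma. The log2 fold changes were then 0.05 to 0.21. Without the pairing, in a fit with no replicate block, XBP1 was at 0.33 (limma adjusted p = 0.999), and all genes past both thresholds numbered 20 with YOd, 10 with WOd, 10 with both onions joined and 5 between the onions. The block changed no call of the 9 genes.

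The counts over all genes, behind the shares given, were 111 (YOd), 31 (WOd), 30 (7 pigs) and 90 (difference). They were 63 (YOd), 13 (WOd) and 49 (difference) with normexp, 21, 18 and 49 without a filter on dim genes, and 60, 15, 19 and 57 with the authors' values. A lower floor gave 56 in WOd/Sd and 48 over the 7 pigs. Leaving out pigs 2 and 7 gave 322, 84, 78 and 193, and with unsaturated probes 317, 81, 79 and 193. No scaling with unsaturated probes gave 186 in YOd/Sd. Every probe gave 1272, 337, 214 and 1554. Leaving out each pig gave 47 to 322, 42 to 84, 17 to 48 and 45 to 151. Without pig 2 YOd/Sd had 322 and the difference 151, without pig 1 YOd/Sd had 47, and without pig 7 WOd/Sd had 84. These 322 and 84 are the same fits as without pigs 2 and 7, since pig 2 had no WOd and pig 7 no YOd.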
